A study of Junonia coenia with 38 samples.

Results

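Gene models on 2 contigs of the buckeye butterfly Junonia coenia were followed in developing wings, one run of neighbours that was high in the prepupa and one that was high 72 h after pupation. All models lying wholly on contig 000019F between positions 1811349 and 1956194 form the prepupal cluster, with 20 members. All models lying wholly between 168374 and 671955 on a second contig form the 72 h cluster, with 28 members. The 48 members are part of a deposited table of 19234 models. The bounds were chosen by the levels at those stages in the same libraries, so the stage pattern is given here as a description and no test is attached to it. The deposited table gives each model a contig, a first and a last position and no name, so no function is assigned. Members are numbered P1 to P20 and T1 to T28 in order of position.

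The 24 wing libraries fall into 8 groups of 3, with hindwing and forewing sampled at each of 4 stages: larvae of the 5th instar, prepupae, pupae of 72 h, and late pupae. For the late pupae the stage label reads 6 days, whereas the titles read day 7. Animals were kept at about 27C, and poly-A RNA of whole wings was sequenced; no treatment, genotype or strain, sex, or pooling of animals is stated. Forewings and hindwings carry the same set of replicate numbers within a stage. Nothing states that replicates are separate animals, so p-values measure the spread between these libraries. The other 14 samples, described as annotation material, were not analysed here.

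In butterflies the wings grow inside the caterpillar as discs and turn outward at pupation. Pulses of the steroid hormone ecdysone time the moults and set off successive waves of gene activity in the wing epithelium. Within these waves the tissue secretes pupal and then adult cuticle, and builds scales that are later pigmented. Insect genes of like function often lie side by side, with cuticle protein genes a common example. Whether these 2 clusters belong to such a family was not tested, since the models have no names. The labels "hindwing" and "forewing" could likewise not be checked against marker genes such as the hindwing selector Ubx. In whole wings, fewer cells of a type and less RNA per cell cannot be told apart.

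Larval libraries held 8678215 to 21284939 counts each and prepupal libraries 9282023 to 15256236. Libraries of 72 h held 5795618 to 13355152 counts and late pupal libraries 8316939 to 12775785. Levels are CPM, counts scaled to a common library size, after scaling by TMM factors, which ranged from 1.64 to 1.8 in larval, 0.557 to 0.979 in prepupal, 0.717 to 1.07 in 72 h and 0.857 to 0.952 in late pupal libraries. In the prepupa the factors split by wing, at 0.792 to 0.979 in hindwings and 0.557 to 0.612 in forewings. The 72 h libraries numbered 3 of both wings stand apart from numbers 1 and 2 in many models, and wing calls at 72 h and interactions are given with and without them. A filter on low counts kept 13282 models for testing, among them 18 members of each cluster. The members below the filter were P3 and P14, with 6 and 26 counts over all 24 libraries, and T2, T3, T4, T6, T7, T8, T10, T25, T26 and T27, with 1 to 96 counts each.

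The prepupal cluster covers 144846 bp with short, closely set models. The median span of its 20 members was 1126 bp, against 5258 bp for all models of the table, and the shortest was 639 bp. The 12 models from P5 to P16 spanned 858 to 1575 bp each. The median gap between neighbours was 5039 bp and the widest 16553 bp, between P12 and P13. P18 and P19 overlap by 140 bp, so their counts are uncertain, since reads in the shared stretch can be divided or counted for both. The 72 h cluster is wider, at 503582 bp, with a median span of 4694 bp, a median gap of 9140 bp and a widest gap of 45190 bp between T5 and T6. It ends with the last model of its contig, at position 671955, and holds 28 of the 29 models listed there.

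As a whole, the prepupal cluster went through 2 high stages and the 72 h cluster through 1. The prepupal cluster held 0.00817% ± 0.00388 (SD, n = 3) of the counts of larval hindwings and 0.0124% ± 0.00293 of larval forewings. In the prepupa it held 1.11% ± 0.238 in hindwings and 0.763% ± 0.308 in forewings. These shares are not TMM-scaled. The summed TMM-scaled CPM was 12791 ± 2859 in prepupal hindwings and 12931 ± 5052 in prepupal forewings. At 72 h the prepupal cluster held 0.00614% ± 0.00465 in hindwings and 0.00811% ± 0.00448 in forewings. In the late pupa it held 1.98% ± 0.557 of hindwing and 2.79% ± 0.405 of forewing counts, of which P17 alone made up 92.5%. The 72 h cluster held at most 0.0151% of the counts of any larval, prepupal or late pupal library. At 72 h it took 21.4% ± 0.656 of hindwing counts and 19.1% ± 0.987 of forewing counts.

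By mean CPM over both wings, 17 of the 18 tested members of the prepupal cluster were highest in the prepupa, as were 19.2% of all 13282 models. All 18 tested members of the 72 h cluster were highest at 72 h, as were 23.4% of all models. All 6 prepupal libraries lay above the other 18 libraries for 13 of the 18 P members, against 5.23% of all models. The 6 libraries of the 72 h pupa did so for 14 of the 18 T members, against 7.08%. These counts restate how the clusters were bounded.

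**Figure D1:**
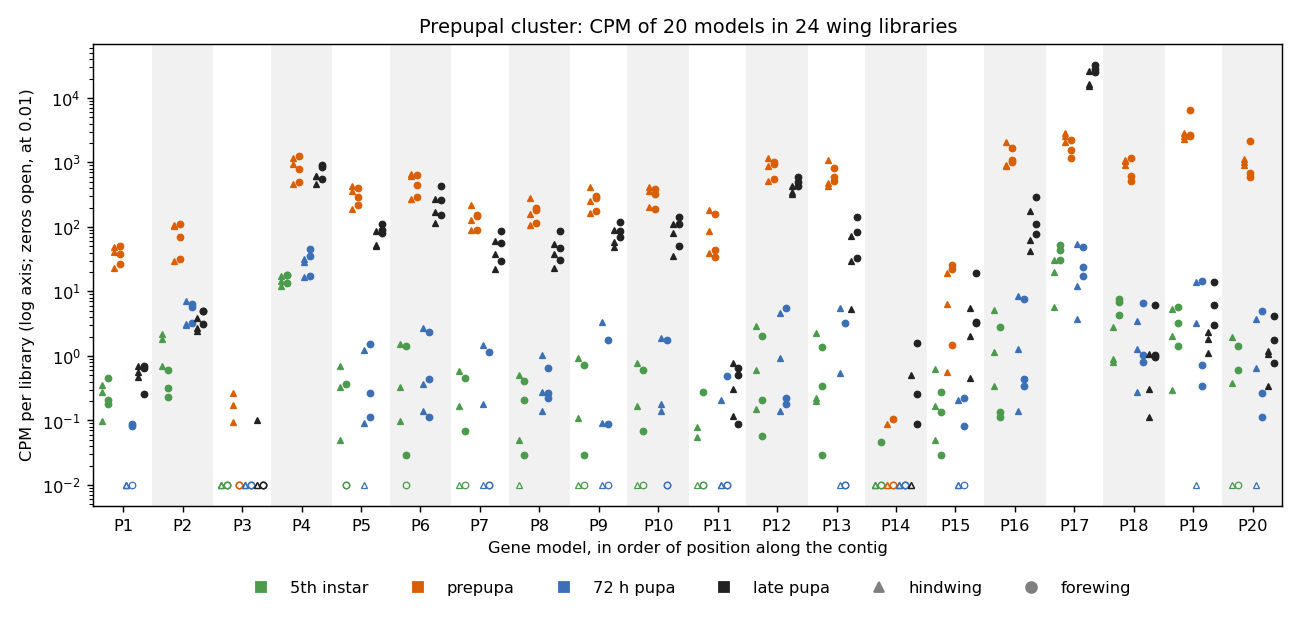
CPM on a log axis of the 20 models of the prepupal cluster, P1 to P20 in order of position, with 1 point per library (24 points a model; triangles hindwing, circles forewing; colour the stage; libraries with 0 counts drawn open at 0.01). P4 to P10, P12, P13, P16 and P17 are high in prepupal and again in late pupal libraries, P15 is lower at both stages and P14 had few counts, while P1, P2, P11, P18, P19 and P20 stay below 10 CPM in the late pupa in all but 1 library.

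Walking along the prepupal cluster, the left edge holds weaker models. P1 (1811349 to 1818501) stood at 48.7, 22.7 and 40.6 CPM in prepupal hindwings and 38.5, 26.4 and 50.6 CPM in prepupal forewings. P2 (1818741 to 1819882) stood at 108, 29.4 and 103 CPM in prepupal hindwings and 70.3, 32.2 and 113 CPM in prepupal forewings. Outside the prepupa P1 stayed at or below 0.704 CPM and P2 at or below 7.03 CPM in all 18 libraries. P3 was below the filter at every stage.

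P4 (1837687 to 1839284) was never near 0 in any library. It stood at 930, 466 and 1162 CPM in prepupal hindwings and 779, 502 and 1241 CPM in prepupal forewings. Late pupal hindwings had 626, 456 and 617 CPM, and late pupal forewings had 918, 558 and 847 CPM, so prepupal and late pupal libraries overlapped. Larval libraries lay between 12.1 and 18.1 CPM and 72 h libraries between 16.8 and 45.9 CPM.

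From P5 to P10 a block of 6 short models shared one profile. P5 (1848940 to 1850145) had 435, 189 and 359 CPM in prepupal hindwings and 295, 220 and 396 CPM in prepupal forewings. P6 (1851507 to 1852847) had 672, 274 and 618 CPM in prepupal hindwings and 453, 294 and 649 CPM in prepupal forewings. Late pupal libraries were lower for P5, at 50.8 to 110 CPM, and reached into the prepupal range for P6, at 115 to 424 CPM. P9 (1867800 to 1868720) had 413, 165 and 255 CPM in prepupal hindwings and 305, 174 and 279 CPM in prepupal forewings. P10 (1874120 to 1875694) had 421, 203 and 363 CPM in prepupal hindwings and 325, 188 and 394 CPM in prepupal forewings. In each of these the replicate 2 libraries were the lowest of their wing. Late pupal libraries held 48.9 to 120 CPM of P9 and 35.7 to 143 CPM of P10. The weaker P7 and P8 ranged from 89.4 to 218 CPM and from 108 to 283 CPM in the prepupa, and from 22.3 to 86.1 CPM and 22.7 to 85.6 CPM in the late pupa. None of the 6 passed 3.33 CPM in any larval or 72 h library.

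P11 (1876765 to 1877783) breaks the block. It stood at 86.5, 39.8 and 183 CPM in prepupal hindwings and 43.4, 33.9 and 159 CPM in prepupal forewings, and no library of another stage passed 0.788 CPM. Unlike its neighbours on both sides, it was near 0 in the late pupa, between 0.0875 and 0.788 CPM.

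From P12 to P17 most models were again above their larval and 72 h levels at both stages, with P14 below the filter. P12 (1886262 to 1887119) had 1186, 515 and 886 CPM in prepupal hindwings and 950, 555 and 1020 CPM in prepupal forewings, with 326 to 588 CPM in the late pupa. P13 (1903673 to 1904748) had 1083, 475 and 425 CPM in prepupal hindwings and 821, 512 and 602 CPM in prepupal forewings. P16 (1911574 to 1912549) had 2049, 903 and 891 CPM in prepupal hindwings and 1699, 1018 and 1095 CPM in prepupal forewings. For P13 and P16 replicate 1 was the highest in both wings. Their late pupal levels varied widely between libraries, from 5.29 to 141 CPM for P13 and from 43 to 291 CPM for P16. In larval and 72 h libraries P12 stayed at or below 5.62 CPM, P13 at or below 5.63 CPM and P16 at or below 8.54 CPM. P15 was the weakest tested model here, at 0.56 to 25.6 CPM in the prepupa and 0.451 to 19.2 CPM in the late pupa, and prepupal replicate 3 was its lowest in both wings. P14 was below the filter, with at most 1.6 CPM in a library.

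P17 (1917711 to 1926121) went against the name of its cluster. It stood at 2602, 2056 and 2869 CPM in prepupal hindwings and 1579, 1158 and 2217 CPM in prepupal forewings. In the late pupa it stood at 26218, 16560 and 15540 CPM in hindwings and 32417, 28537 and 25369 CPM in forewings. Every late pupal library exceeded every prepupal one, and the late pupal mean was 775% of the prepupal mean in hindwings and 1743% in forewings. Larval libraries held 5.66 to 52.8 CPM and 72 h libraries 3.75 to 55.2 CPM.

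The last 3 members at the right edge were high in the prepupa alone. P18 (1933812 to 1934486) had 1099, 918 and 1046 CPM in prepupal hindwings and 621, 519 and 1175 CPM in prepupal forewings. P19 (1934347 to 1944097) had 2876, 2569 and 2307 CPM in prepupal hindwings and 2703, 2535 and 6601 CPM in prepupal forewings. P20 (1955556 to 1956194) had 1113, 899 and 1009 CPM in prepupal hindwings and 676, 589 and 2151 CPM in prepupal forewings. Prepupal forewing replicate 3 was the highest of its group for all 3. Outside the prepupa the highest library stood at 7.7 CPM for P18, 14.3 CPM for P19 and 5.05 CPM for P20.

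Per kilobase of span, the mean prepupal level was highest in P20 (1679 CPM per kb), followed by P18 (1328) and P16 (1307), and lowest among tested members in P1 (5.3) and P15 (13.5). P19, with a mean of 3265 CPM, had 335 CPM per kb over a span of 9751 bp. Spans can include introns, so these values place models in order of span-scaled counts and not of transcript number.

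The late pupal level relative to the prepupal one differed widely between members. Late pupal libraries lay above 72 h libraries without overlap in both wings for 12 of the 18 tested P members, against 24% of all models. These were P1, P4 to P10, P12 and P15 to P17; P13 overlapped in hindwings, where the lowest late pupal library had 5.29 CPM and 72 h replicate 2 had 5.63 CPM. As a share of the prepupal mean, the late pupal mean was 19.5% to 92.1% for P4 to P10, P12 and P15 in either wing. It was 5.45% to 13.4% for P13 and P16, and 1.38% to 6.07% for P1 and P2. For P11, P18, P19 and P20 it was 0.0484% to 0.526%. No test was run on these shares.

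**Figure D2:**
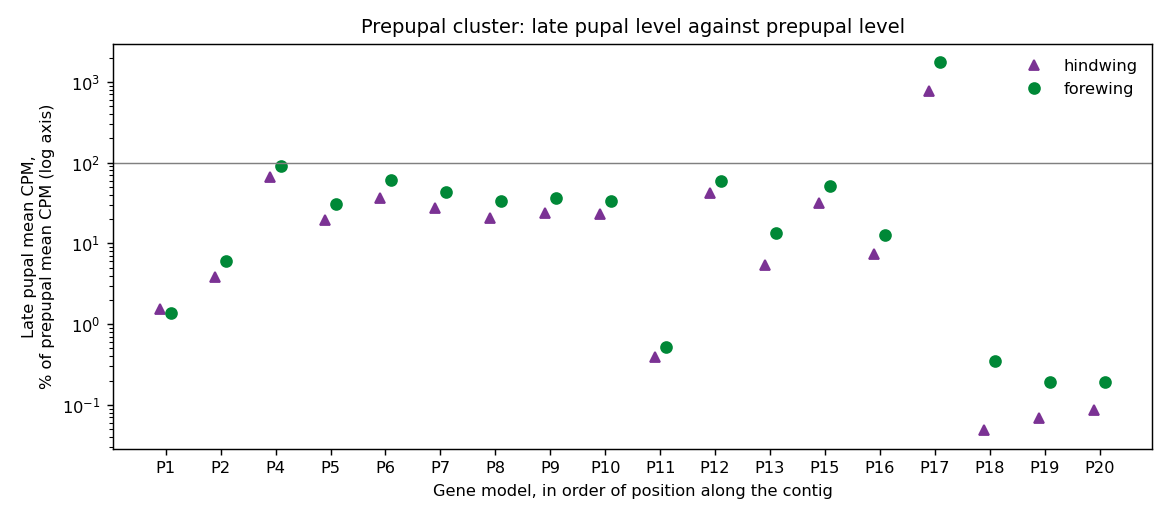
Late pupal mean CPM as a percentage of the prepupal mean CPM (log axis; grey line at 100%) for the 18 tested models of the prepupal cluster in order of position, triangles hindwing and circles forewing, each a ratio of means of 3 libraries. P17 lies above the line at 775% and 1743%, P4 to P10, P12 and P15 lie between 19.5% and 92.1%, and P11, P18, P19 and P20 lie below 1%.

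Low counts of the prepupal cluster outside its high stages were not spread evenly over libraries. In larval wings replicate 2 was the highest in both wings for 13 of the 18 tested P members, against 24.7% of all models. P16 had 0.348, 5.22 and 1.16 CPM in larval hindwings and 0.137, 2.8 and 0.115 CPM in larval forewings. At 72 h replicate 2 was the highest in both wings for 14 of the 18, against 17% of all models. P19 had 0, 13.8 and 3.2 CPM in 72 h hindwings and 0.338, 14.3 and 0.712 CPM in 72 h forewings. In the prepupa replicate 2 was the lowest in both wings for 14 of the 18, against 14% of all models. Across the 18 members, Spearman's rho between the library and the mean prepupal level was 0.827 and 0.919 in larval hindwing and forewing replicate 2, and 0.865 and 0.833 in those of 72 h. It was 0.288 to 0.746 in the other larval and 72 h libraries. The points of one rho share a library and its depth. The source of these low counts was not tested.

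The models just outside the prepupal cluster differ on the 2 sides. The nearest 2 models to the left, 1775450 to 1779533 and 1808478 to 1809056, were below the filter, and 1766984 to 1772106 had mean levels of 55.3 to 92.5 CPM at all 4 stages. To the right, 1959331 to 1967751 averaged 2.36 CPM in the prepupa and 361 CPM in the late pupa, with 125 CPM in hindwings and 596 CPM in forewings. The following 2 models were high in the prepupa, mainly in forewings. The model 1993383 to 1994189 averaged 1701 CPM in prepupal hindwings and 15419 CPM in prepupal forewings. The model 2004960 to 2006024 averaged 1504 CPM in prepupal hindwings and 15033 CPM in prepupal forewings. Models high in the prepupa thus continue beyond the right bound of the cluster.

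**Figure D3:**
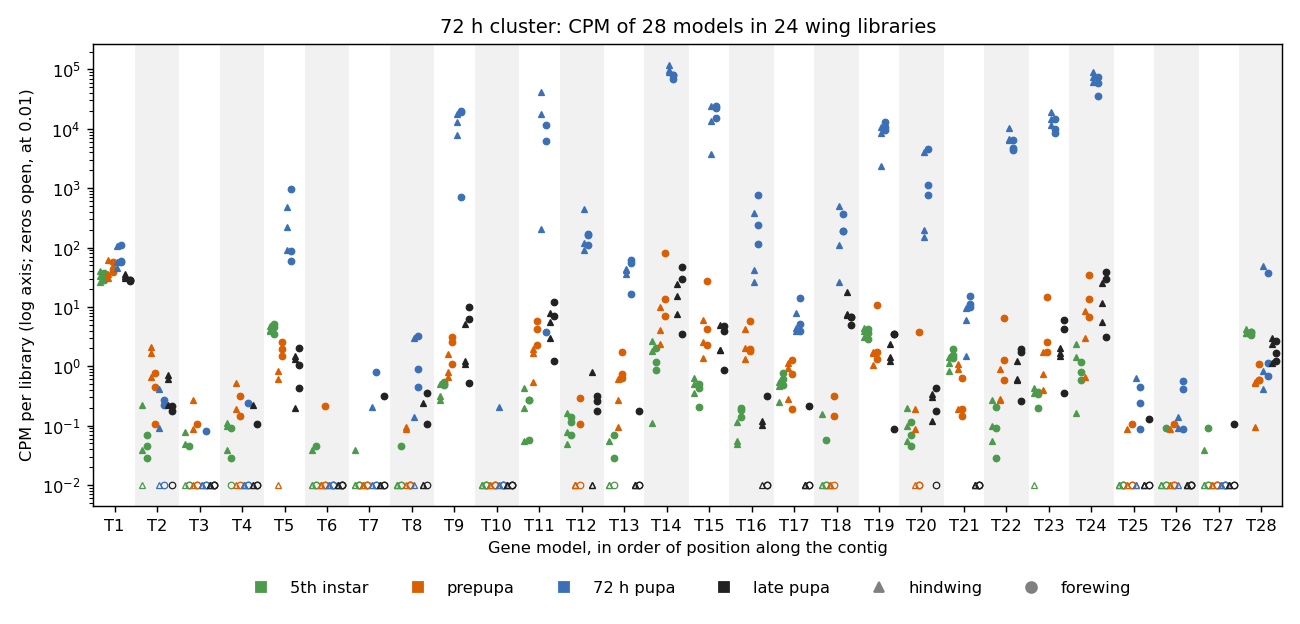
CPM on a log axis of the 28 models of the 72 h cluster, T1 to T28 in order of position, with 1 point per library (24 points a model; triangles hindwing, circles forewing; colour the stage; libraries with 0 counts drawn open at 0.01). From T9 to T24 most models stand several orders of magnitude higher at 72 h than at other stages, while T1 lies between 26.4 and 110 CPM throughout and 10 models were too low to test.

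The left part of the 72 h cluster holds one model present at all stages and several with few counts. T1 (168374 to 174502) had 56.3, 44.8 and 105 CPM in 72 h hindwings and 59.2, 57.4 and 110 CPM in 72 h forewings. Its other libraries lay between 26.4 and 62.1 CPM, so the 72 h libraries overlapped them. T2, T3 and T4 were below the filter. T5 (195029 to 199449) had 221, 90.2 and 474 CPM in 72 h hindwings and 60, 88.2 and 975 CPM in 72 h forewings, against at most 5.05 CPM elsewhere. T6, T7 and T8 were below the filter as well. T8, named after its values were seen, had 0.141, 0 and 3.02 CPM in 72 h hindwings and 0.451, 0.896 and 3.29 CPM in 72 h forewings.

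T9 and T11 were the first abundant members in order of position. T9 (282087 to 290733) had 12959, 17475 and 7805 CPM in 72 h hindwings and 20199, 19111 and 701 CPM in 72 h forewings. T11 (300560 to 303753) had 42291, 18043 and 203 CPM in 72 h hindwings and 11368, 6294 and 3.83 CPM in 72 h forewings. In both models replicate 3 was the lowest of its wing. For T11, 72 h forewing replicate 3 fell within the range of late pupal libraries, 1.23 to 12.2 CPM. T9 stayed at or below 10.1 CPM outside 72 h. T10, between them, had 1 count in all.

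T12 and T13 were weaker and switched at the same stage. T12 ranged from 91.2 to 447 CPM at 72 h and reached 0.804 CPM elsewhere. T13 ranged from 16.2 to 60.8 CPM at 72 h and reached 1.74 CPM elsewhere, in a prepupal forewing.

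T14 (382989 to 387955) was the most abundant member. It had 118886, 99347 and 91475 CPM in 72 h hindwings and 79281, 79612 and 68199 CPM in 72 h forewings. On average it made up 38.9% of the counts of the cluster at 72 h. Larval libraries held 0.11 to 2.68 CPM, prepupal libraries 2.4 to 79.9 CPM and late pupal libraries 3.5 to 46.4 CPM.

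T15 to T20 ranged from a mean of 6.57 CPM in T17 to 17146 CPM in T15 at 72 h. T15 (397096 to 402452) had 3825, 13395 and 24262 CPM in 72 h hindwings and 15060, 22572 and 23759 CPM in 72 h forewings. T16 (413397 to 415210) had 26, 41.7 and 381 CPM in 72 h hindwings and 115, 240 and 765 CPM in 72 h forewings. In both, replicate 3 was the highest of its wing and hindwing replicate 1 the lowest of all 6 libraries. T18 (449359 to 450789) had 26.6, 109 and 510 CPM in 72 h hindwings and 190, 364 and 188 CPM in 72 h forewings. T19 (479617 to 483917) had 2329, 8434 and 10634 CPM in 72 h hindwings and 9393, 12861 and 10876 CPM in 72 h forewings. T20 (490813 to 491607) had 149, 194 and 4072 CPM in 72 h hindwings and 1121, 770 and 4625 CPM in 72 h forewings. Hindwing replicate 1 was the lowest of the 6 libraries in each of T15, T16, T18, T19 and T20. Outside 72 h, T15 stayed at or below 27.3 CPM, T16 at or below 5.87, T19 at or below 10.7 and T20 at or below 3.82 CPM. T17 was weak, at 3.94 to 14.1 CPM at 72 h. T18 kept 5.01 to 17.9 CPM in the late pupa, where T16, T17 and T20 were at or below 0.427 CPM.

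T21 was weak at 72 h and listed at 0 afterwards. It had 1.46 to 15 CPM at 72 h and 0.844 to 1.92 CPM in the larva, so the groups overlapped. It had 0 counts in all 6 late pupal libraries, which allows up to 0.0537 CPM over the stage (3 counts, counting error only).

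T22, T23 and T24 lie close together and were high in every 72 h library. T22 (542792 to 544723) had 10470, 6477 and 6701 CPM in 72 h hindwings and 4718, 4408 and 6368 CPM in 72 h forewings. T23 (544850 to 569279) begins 126 bp after it and had 19062, 11490 and 14890 CPM in 72 h hindwings and 10091, 8624 and 14833 CPM in 72 h forewings. T24 (575512 to 582415) had 89780, 74219 and 61303 CPM in 72 h hindwings and 74697, 59707 and 35780 CPM in 72 h forewings. In T22 and T23 hindwing replicate 1 was the highest and forewing replicate 2 the lowest of the 6 libraries. Outside 72 h, T22 stayed at or below 6.61 CPM, T23 at or below 14.4 CPM and T24 at or below 38.1 CPM. T24 made up 28.2% of the counts of the cluster at 72 h, and with T14 it was at the head of the cluster per kilobase of span, at 9547 CPM per kb for T24 and 18012 for T14.

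The right end was quiet apart from replicate 3. T25, T26 and T27 were below the filter. T28 (665422 to 671955), named after its values were seen, had 0.844, 0.417 and 48.8 CPM in 72 h hindwings and 0.677, 1.14 and 37.4 CPM in 72 h forewings. Larval libraries held 3.3 to 4.27 CPM of T28, so replicates 1 and 2 of the 72 h pupa lay below the larva and replicate 3 above it. On the left the one model outside the cluster, 873 to 12510, averaged between 1.74 and 7.07 CPM at the 4 stages.

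Replicate 3 of the 72 h pupa divided the T members in both directions. It was the highest of its wing in both wings for 7 of the 18 tested members, T1, T5, T15, T16, T17, T20 and T28, against 23.8% of all models. It was the lowest in both wings for 5, T9, T11, T13, T14 and T24, against 22.6% of all models. Those 7 and 5 of 18 lie near the shares of all models. In replicate 3, T28 stood at 77.4 times the mean of replicates 1 and 2 in hindwings and 41.1 times in forewings. For T20 the ratios were 23.7 and 4.89, and for T11 they were 0.00674 and 0.000433. T14, T22 and T23 differed least among the abundant members, with ratios between 0.791 and 1.59.

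**Figure D4:**
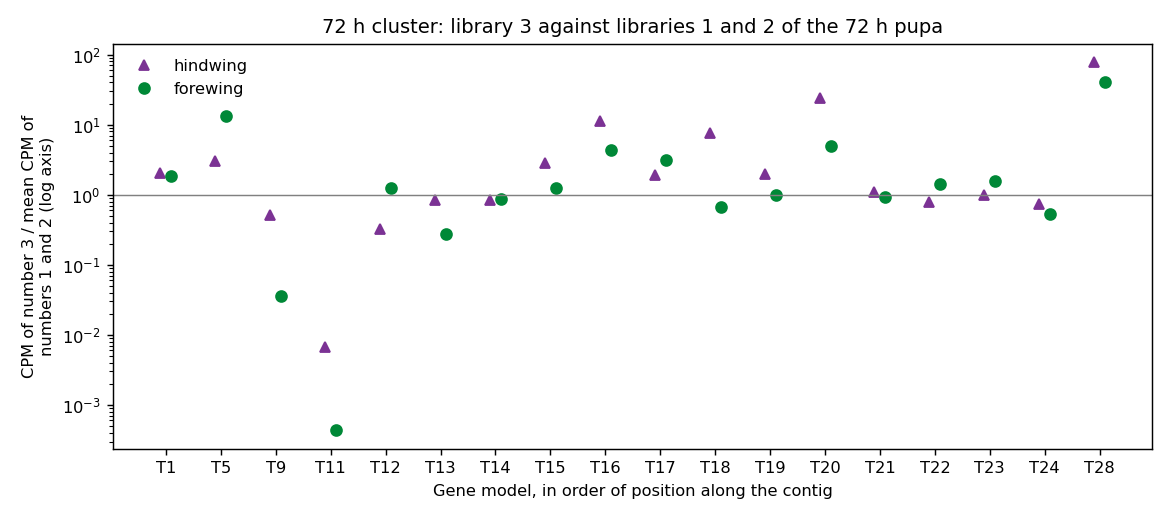
CPM of the 72 h library numbered 3 divided by the mean CPM of numbers 1 and 2 (log axis; grey line at 1) for the 18 tested models of the 72 h cluster in order of position, triangles hindwing and circles forewing. T28, T20, T16 and T5 lie above the line and T9 and T11 below it in both wings, with T11 at 0.00674 and 0.000433.

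Libraries numbered 3 also ranked at an end of their group in some T members at other stages. Nothing states that a number links libraries of different stages. In the prepupa, forewing replicate 3 was the highest of its group for 11 of the 18 tested T members, against 33.9% of all models. T14 had 2.4, 10.1 and 4.01 CPM in prepupal hindwings and 13.4, 6.96 and 79.9 CPM in prepupal forewings. T20 had 0, 0.0882 and 0.187 CPM in prepupal hindwings and 0, 0 and 3.82 CPM in prepupal forewings. That library was also the highest prepupal forewing for 12 of the 18 tested P members. In the late pupa, replicate 3 was the lowest in both wings for 6 of the 18, T9, T11, T14, T15, T22 and T24, against 19.2% of all models. Those 6 of 18 lie about as near the share of all models as the counts at 72 h. T24 had 25, 11.6 and 5.46 CPM in late pupal hindwings and 38.1, 30 and 3.06 CPM in late pupal forewings.

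The clusters were bounded by stage in both wings together, not by the wing difference. Such a choice can pass over models high mainly in a single wing, like the forewing-led models beyond the right bound of the prepupal cluster. The counts of wing calls below are therefore not independent of the choice. The wing difference was tested with the quasi-likelihood test of edgeR over all 13282 models, with Benjamini-Hochberg adjustment and a threshold of 0.05. At no stage was a member of either cluster called. Of all models, the larval test called 0.0376%, the prepupal test 10.3%, the 72 h test 0.00753% and the late pupal test 0.0301%. In the prepupa 0 of the 36 tested members were called, against 10.3% of all models. At an unadjusted p below 0.05 there were 2 members in the larva (P2 and P18; 2.7% of all models), 5 in the prepupa (T14, T15, T22, T23 and T24; 22.7%), 0 at 72 h (3.85%) and 1 in the late pupa (P18; 1.91%). The DESeq2 Wald test called 3 in the prepupa (T14, T22 and T23; 14.5% of all models) and 0 at the other stages, where it called 0.295%, 0.156% and 0.144% of all models in stage order.

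For the prepupal cluster at its own stage no wing difference was called, with or without pairs of the same number as blocks. The fitted log2 fold change of hindwing over forewing lay between −0.96 and 0.60 for the 18 tested members, with standard errors of 0.36 to 1.16 and a median of 0.12, against 0.04 for all models. Adjusted p was 0.694 or higher without the block. With the block the lowest was 0.062 (edgeR), for P15 at −1.15 ± 0.43 (SE), lower in hindwings in all 3 pairs. Without both 72 h libraries numbered 3, P15 was called at −1.14 ± 0.39 (edgeR adjusted p = 0.0361). That fit called 34.6% of all models in the prepupa. With standard errors of this size, a lack of calls does not show that the wings were equal. In the late pupa 16 of the 18 had a fitted value below 0.00, as did 6577 of all 13282 models. The median was −0.54 against 0.00 for all models. In the fits of all 24 libraries none passed the test with or without the block. The hindwing library was the lower in all 3 pairs for 15 of the 18, against 16.4% of all models; the exceptions were P1, P11 and P18. These members share their libraries and are not replicates. P13 had 5.29, 73.2 and 29.4 CPM in late pupal hindwings and 33.3, 141 and 84.6 CPM in late pupal forewings, lower in the hindwing in 3 of 3 pairs. With pairs of the same number as blocks its log2 fold change was −1.61 ± 0.31 (SE; edgeR adjusted p = 0.0579). Without both 72 h libraries numbered 3, P13 was called at −1.56 ± 0.26 (edgeR adjusted p = 0.0143). That fit called 0.881% of all models in the late pupa.

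For the 72 h cluster wing values are given at 72 h and in the prepupa. At 72 h the log2 fold changes ran from −1.32 to 1.78 with a median of −0.13, against −0.03 for all models. In the prepupa, where the T members were at low levels, 16 of the 18 had a fitted log2 fold change below 0.00. T17 was at 0.00 and T21 above it. Of all 13282 models, 6169 were below 0.00. The median of the T members was −1.70 against 0.04 for all models. Without prepupal forewing replicate 3, a choice made after seeing the data, the median was −0.92 against 0.05 for all models. Then 14 of the 18 were below 0.00, as were 6086 of all 13282 models. In the pair numbered 2, 9 of the 18 were higher in hindwings, and 5 of the 18 were lower in hindwings in all 3 pairs. The shares of all models were not computed for these pair counts, which are given as values only. Counts behind these prepupal values were low. T22 held 15 counts in 3 prepupal hindwings and 60 in 3 prepupal forewings.

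Forewing and hindwing libraries of the same stage and number vary together, and a fit with the number as a block called 6 wing differences among the members. These were 2 P members in the larva (0.986% of all models), 2 T members in the prepupa (30.9%), 2 T members at 72 h (2.7%) and 0 in the late pupa (0.459%). In the prepupa the 2 calls among 18 T members are a smaller share than that of all models. In the larva and at 72 h the 2 calls fell in a single cluster, and the other cluster had 0. Each of these calls was lost in some of the fits that left libraries out, given below. They are too few to be read as an excess over all models.

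In the larva P2 and P18 were called in opposite directions at levels under 10 CPM. P2, named after its values were seen, had 0.695, 2.18 and 1.82 CPM in larval hindwings and 0.614, 0.321 and 0.23 CPM in larval forewings, higher in the hindwing in 3 of 3 pairs. Its log2 fold change was 2.18 ± 0.45 with the block (edgeR adjusted p = 0.0421) and 2.10 ± 0.63 without it (adjusted p = 0.989). P18 had 0.795, 2.84 and 0.882 CPM in larval hindwings and 4.3, 7.7 and 6.81 CPM in larval forewings, with no overlap. Its log2 fold change was −2.13 ± 0.44 with the block (adjusted p = 0.042) and −2.03 ± 0.82 without it (adjusted p = 1). In the prepupa P18 was at 519 to 1175 CPM in both wings, with overlapping groups.

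In the prepupa T22 and T23 were lower in hindwings at levels under 15 CPM. T22 had 0.267, 0.882 and 0.28 CPM in prepupal hindwings and 0.581, 1.29 and 6.61 CPM in prepupal forewings, lower in 3 of 3 pairs. Its log2 fold change was −2.30 ± 0.68 with the block (edgeR adjusted p = 0.0217) and −2.50 ± 0.81 without it (adjusted p = 0.0549). T23 had 0.401, 1.76 and 0.746 CPM in prepupal hindwings and 2.52, 1.71 and 14.4 CPM in prepupal forewings, lower in 2 of 3 pairs. Its log2 fold change was −2.26 ± 0.80 with the block (adjusted p = 0.0487) and −2.62 ± 0.89 without it (adjusted p = 0.0691). Both calls rested on replicate 3. Without both prepupal libraries of that number the blocked values were −0.67 for T22 and −0.85 for T23 (adjusted p = 0.53 and 0.541).

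At 72 h T11 was higher and T16 lower in hindwings. For T11, given above, the hindwing library was higher in 3 of 3 pairs, although replicate 3 lay far below the others in both wings. The log2 fold change was 2.77 ± 0.65 with the block (edgeR adjusted p = 0.0419) and 1.78 ± 1.43 without it (adjusted p = 1). For T16 the hindwing library was lower in 3 of 3 pairs, and the log2 fold change was −1.86 ± 0.35 with the block (adjusted p = 0.017) and −1.32 ± 0.79 without it (adjusted p = 1). Without both 72 h libraries numbered 3, the blocked values were 1.71 ± 0.30 for T11 and −2.34 ± 0.31 for T16 (adjusted p = 0.00235 and 0.000429). That fit called 8.96% of all models at 72 h, and among the members also T18 and T20, at −2.26 ± 0.29 and −2.45 ± 0.25 (adjusted p = 0.000887 and 6.71e-05). T18 went the other way in the pair numbered 3, at 510 CPM in the hindwing and 188 CPM in the forewing. The call of T16 ended without both libraries of 72 h replicate 1 or 2 (adjusted p = 0.0964 and 0.118), and that of T11 without replicate 1 (adjusted p = 0.0765). The T11 call also ended in every fit that left out a larval, prepupal or late pupal pair (edgeR adjusted p = 0.0529 to 0.0707). Those pairs hold none of its 72 h values. At the other stages the fit without those libraries called 2.42% of all models in the larva, 34.6% in the prepupa and 0.881% in the late pupa. Over 12 blocked fits that each left out both libraries of 1 number at 1 stage, T16 was called in 10, T11 in 2, T22 in 11, T23 in 5, and P2 and P18 in 6 each.

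**Figure D5:**
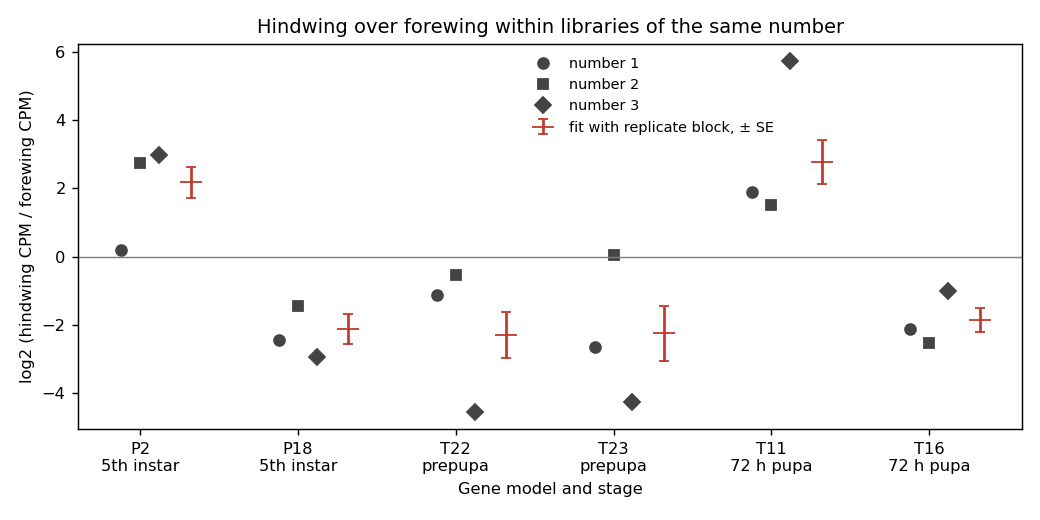
Log2 ratio of hindwing CPM to forewing CPM within libraries of the same stage and number (circle 1, square 2, diamond 3) for the 6 members called with the replicate block, with the fitted log2 fold change ± SE in red. All 3 pairs of P2 and T11 lie above 0 and all 3 of P18, T22 and T16 below it, while T23 replicate 2 lies at 0.04.

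The change of the wing difference between the prepupa and 72 h was tested as an interaction. Without the block 0 members were called, as were 4.04% of all models, and the lowest adjusted p among the members was 0.107 (edgeR). With the block T11 and T22 were called, as were 21% of all models. The wing difference of T11, hindwing over forewing, was lower in the prepupa than at 72 h by a log2 value of −4.33 ± 1.04 (adjusted p = 0.0109), and that of T22 by −2.89 ± 0.77 (adjusted p = 0.0179). T11 had 0.534, 1.68 and 1.96 CPM in prepupal hindwings and 2.32, 4.28 and 5.72 CPM in prepupal forewings, lower in the hindwing in 3 of 3 pairs, the opposite of its order at 72 h. Without both 72 h libraries numbered 3 the values were −3.25 ± 0.51 for T11 (adjusted p = 0.000576) and −3.25 ± 0.70 for T22 (adjusted p = 0.00474). That fit called 22.1% of all models in the interaction. The call of T22 ended without both prepupal libraries numbered 3 (−1.26; adjusted p = 0.27).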

How the data were processed

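The data are whole-number read counts per gene model, which the authors deposited in one table for 24 wing libraries. Per the submitters' processing notes, TopHat, bedtools and DESeq2 were used; no version, genome build, annotation or strand setting is stated in these sources. Columns marked as day 3 were taken as the 72 h libraries of the same wing and number.

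From the deposited counts, edgeR 4.0.16 in R 4.3.3 modelled the 24 libraries together, with 8 group means, TMM scaling and a filter on low counts (minimum count 10, total 15). The fit kept 13282 models. Hindwing was tested against forewing at each stage, and the change of that difference between prepupa and 72 h as an interaction, with the quasi-likelihood test and Benjamini-Hochberg adjustment over all tested models. Standard errors are the log2 fold change divided by the root of F. The steps were tested on simulated data, with libraries drawn independently and wing changes set only in models with higher prepupal counts. That test does not cover the blocked fit under pairing, or calls at low counts. Alternatives were DESeq2 1.42.0 (Wald test and size factors), other filters, each library left out in turn, and replicate numbers as a block. Same-numbered hindwing and forewing libraries of a stage deviated together from their group means (12 pairs, r = 0.597 to 0.814 on log2(CPM + 0.5), at most −0.131 between other numbers), so the numbers were taken to pair the libraries. Blocked values are given where they change a call.

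Values in every library of the cluster's own stage are given for its 12 members with the highest mean CPM there. Other stages are given as ranges or upper bounds. Members called in a fit of all 24 libraries have values in every library of the stage tested. Members called only with libraries left out can have ranges alone. Others named were chosen after their values were seen. The members and lists were chosen with earlier results of these data known. Marker and pathway lists could not be matched to unnamed models and give no result. Of the other 14 samples, 4 carry tissue labels that contradict one another; none was analysed here.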

Additional observations from a re-analysis of the deposited data

Results flagged for a closer look

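The change of the wing difference between the prepupa and 72 h passed the test with the block for 2 of the 18 tested members of the 72 h cluster, a smaller share than the 21% of all models that passed it. With replicate numbers as a block, the log2 ratio of hindwing to forewing of T11 was −4.33 ± 1.04 (SE) in the prepupa relative to 72 h (edgeR adjusted p = 0.0109), and the value without the block was −3.32 (adjusted p = 0.499). For T22 it was −2.89 ± 0.77 with the block (edgeR adjusted p = 0.0179) and −3.11 without it (adjusted p = 0.107). Both members had prepupal levels below 10 CPM in all 6 libraries. Without both prepupal libraries numbered 3 the T22 value was −1.26 (adjusted p = 0.27).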

How the results depend on the processing

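In the unblocked edgeR fit of all libraries with TMM scaling no member was called between the wings. With the replicate block 2 larval differences were called in the prepupal cluster, and 2 prepupal and 2 of 72 h, plus 2 interactions, in the 72 h cluster. In the prepupa the 72 h cluster had 1 call with DESeq2 size factors and 3 with the DESeq2 Wald test. Leaving out 1 library at a time gave 0 to 2 calls for it in the prepupa (1 without forewing replicate 1, 2 without forewing replicate 2 or late pupal forewing replicate 3), 0 to 1 at 72 h (T16 without hindwing replicate 3) and 0 to 1 in the interaction (without 72 h forewing replicate 3). The cause was not tested. A blocked fit without both 72 h libraries numbered 3 was added after seeing the data. In the prepupal cluster it called 3 larval (P2, P17 and P18), 1 prepupal (P15) and 1 late pupal difference (P13). In the 72 h cluster it called 5 prepupal differences (T11, T20, T22, T23 and T24) and 4 of 72 h (T11, T16, T18 and T20). It also called 5 interactions there (T5, T11, T16, T22 and T23). Of all models it called 2.42% in the larva, 34.6% in the prepupa, 8.96% at 72 h, 0.881% in the late pupa and 22.1% in the interaction. Leaving out the overlapping P18 and P19 lowered the prepupal cluster's share of prepupal hindwing counts to 0.796%, against 1.11%, by construction. Without TMM scaling the median wing difference of all models in the prepupa was 0.59 instead of 0.04. That of the prepupal cluster was 0.68 instead of 0.12, and that of the 72 h cluster −1.19 instead of −1.70. The count of members highest at the stage of their cluster stayed within 1.5 times, a wide limit, in all 58 alternative values of both clusters. The clusters were bounded by these levels, so this count does not test the stage pattern. The place of T28 in that count depended on the 72 h libraries numbered 3. Low counts limit the wing tests outside each cluster's own stage.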
